A study of Mus musculus with 28 samples.

Results

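The genes described here are the nuclear genes for the subunits of the mitochondrial respiratory chain and of ATP synthase. They were taken by name from the deposited count tables: protein-coding genes whose symbol begins with Ndufa, Ndufb, Ndufc, Ndufs or Ndufv (complex I, assembly factors named Ndufaf left out), Uqcr (complex III), Cox4 to Cox8 (complex IV) or Atp5 (ATP synthase). The rule gave 84 of 41549 genes, of which 39 fell to complex I, 8 to complex III, 19 to complex IV and 18 to ATP synthase. The name decided the complex, so Ndufa4, now regarded as a complex IV subunit, is counted with complex I.

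Complexes I, III and IV pass electrons from NADH and ubiquinol to oxygen and pump protons across the inner mitochondrial membrane, and ATP synthase uses the returning protons to make ATP. Some core subunits of each of these complexes are encoded by the mitochondrial genome, and the others by nuclear genes whose proteins are imported, so both genomes must supply each complex. Neurons depend heavily on this pathway, and fast-spiking inhibitory interneurons that make parvalbumin are known for a high oxidative demand.

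The RNA came from nuclei of the motor cortex of 7 mice, numbered 17 to 23. Every animal received an adeno-associated virus vector with the nuclease Cas9 on both sides: AAV-Cas9-miR-124-empty in the left and AAV-Cas9-miR-124-g4 in the right motor cortex, so vector and side cannot be told apart. Nuclei of fixed tissue were stained for the HA tag of Cas9 and sorted, which gave HA-positive (with Cas9) and HA-negative nuclei for each vector, or 4 groups of 7 libraries. All groups therefore come from injected tissue, and there was no uninjected control. The promoter that drives Cas9, the strain, genotype and age of the animals, and what g4 stands for have no statement in the labels or methods at hand. The comparisons ask how nuclei with Cas9 differ between the vectors, and how nuclei with and without Cas9 differ.

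Libraries held 248612 to 902944 counts, and 987 to 3095 of these, or 0.306 to 0.553%, fell on the 84 genes. Between 65 and 77 of the genes were detected in a library. Fewer than 10000 genes of any kind were detected in 4 HA-positive libraries, those of animals 17, 21 and 22 with the empty vector and of animal 18 with g4. All libraries of animals 17, 18 and 20 held Y-linked counts and 0 counts of Xist. Those of animals 21 to 23 held Xist and 0 to 2 Y-linked counts, so by these genes every group held both sexes. The main tests had no term for sex. The g4 HA-positive library of animal 19 stood apart: it held 591 counts of Xist together with 44 counts of Y-linked genes, where the other 3 libraries of animal 19 held 0 counts of Xist and 50 to 99 of Y-linked genes. Its Xist counts go against the other libraries of its number, so its pairing is in doubt in every count over animals below. In addition, its summed level of 11 oligodendrocyte markers was 1542 CPM, against 105 to 225 in the other 6 libraries of its group. Its microglia marker sum was 361 CPM against 2.75 to 46.9, and its inhibitory neuron sum 1988 against 2639 to 3978. Its make-up as an HA-positive library is therefore in doubt too, which touches every mean and test of the g4 HA-positive group. CPM are counts relative to the library total (the usual CPM unit), scaled with TMM factors over all 28 libraries. Some results that rest on these libraries are also given without them, where stated. The others are from all libraries of their groups.

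The RNA came from sorted nuclei, where RNA is transcribed but not necessarily exported, so the values are not levels of whole cells. Nor was it nuclear RNA alone. The 13 protein genes of the mitochondrial genome had mean sums from 14889 CPM (empty HA-negative) to 17811 CPM (g4 HA-positive). Most of the genes were present at low counts. Cox8b, Cox8c, Cox5b-ps and Ndufa4l2 were at 0 in all 28 libraries. Cox4i2, Cox7a1 and Cox7b2 had 2 counts each in all libraries together and Cox6b2 had 3, while each of the other 76 genes had 103 or more. Several of these near-silent genes are the tissue-restricted copies of a subunit: Cox8b and Cox7a1 are the heart and muscle forms, and Cox6b2 and Cox8c are forms of testis. Their widely expressed partners were present, with 1550 counts for Cox8a, 606 for Cox7a2, 1041 for Cox6b1 and 2211 for Cox4i1.

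Per kilobase of annotated exon, complex IV subunits led the order of mean levels over the 28 libraries. Cox8a had 175 CPM per kb, Cox6b1 103 and Cox4i1 97.1. Atp5a1, the alpha subunit of the catalytic head of ATP synthase, followed with 91.3 CPM per kb. The complex I subunits with the highest CPM were Ndufv3, Ndufs1, Ndufa10 and Ndufa12. Of these, Ndufa12 had 50.6 CPM per kb and Ndufs1, the largest subunit of complex I, 10.1. Before scaling by length they were close, at 79.4 and 81.7 CPM. The lengths used, 1569 and 8086 bases, merge the exons of all annotated transcripts. The values per kb therefore depend on the annotation.

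Sequences upstream of the genes are shown because the best known regulators of this gene set bind there: NRF1, the ETS factor GABPA (also called NRF2) and YY1. RefSeq windows (250 bases before to 50 after the start, GRCm38.p6) were found for 66 of 83 gene symbols. The 5 windows printed belong to genes that passed the test between sorted fractions below, and capitals mark letters matched by any of the motifs searched. The motifs were searched on both strands in 2 rounds. The first round used the consensus palindrome of NRF1 (TGCGC preceded by its own reverse complement), CCGGAAG for GABPA and ATGGCGG for YY1. The second used shorter or other forms: TGCGCA for the NRF1 site, then CGGAAG for the core of the GABPA site, then AAGATGGC for the YY1 site. It was chosen after the result of the first round and the letters of the printed windows had been seen, so its matches in these windows were partly picked for being there. CGGAAG lies inside CCGGAAG, and the YY1 forms share ATGGC.
Cox5a, chr9:57520982-57521281, plus strand: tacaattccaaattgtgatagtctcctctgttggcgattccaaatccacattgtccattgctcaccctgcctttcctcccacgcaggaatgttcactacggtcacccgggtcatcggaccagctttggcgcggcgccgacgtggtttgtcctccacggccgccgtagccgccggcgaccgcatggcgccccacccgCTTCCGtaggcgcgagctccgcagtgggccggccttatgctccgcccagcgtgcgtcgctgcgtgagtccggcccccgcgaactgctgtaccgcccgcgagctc
Cox5b, chr1:36691237-36691536, plus strand: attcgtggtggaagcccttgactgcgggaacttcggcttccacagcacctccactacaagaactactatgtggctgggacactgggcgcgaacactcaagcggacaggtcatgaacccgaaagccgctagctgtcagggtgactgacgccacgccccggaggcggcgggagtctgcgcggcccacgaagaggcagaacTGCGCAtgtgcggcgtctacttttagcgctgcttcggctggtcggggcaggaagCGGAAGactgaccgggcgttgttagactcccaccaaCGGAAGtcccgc
Cox7b, chrX:106015450-106015749, plus strand: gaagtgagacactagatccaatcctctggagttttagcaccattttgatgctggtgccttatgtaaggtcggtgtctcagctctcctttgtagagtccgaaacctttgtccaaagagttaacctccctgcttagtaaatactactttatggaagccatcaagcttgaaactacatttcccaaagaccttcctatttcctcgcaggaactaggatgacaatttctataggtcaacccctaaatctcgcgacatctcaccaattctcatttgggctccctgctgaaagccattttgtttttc
Ndufb8, chr19:44555393-44555692, minus strand: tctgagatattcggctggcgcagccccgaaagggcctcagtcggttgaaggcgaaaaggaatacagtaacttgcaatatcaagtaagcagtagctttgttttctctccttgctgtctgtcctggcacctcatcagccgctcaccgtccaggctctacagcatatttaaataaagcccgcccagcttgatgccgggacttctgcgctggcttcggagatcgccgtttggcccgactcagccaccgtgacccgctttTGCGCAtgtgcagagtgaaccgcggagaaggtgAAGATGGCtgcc
Atp5b, chr10:128083057-128083356, plus strand: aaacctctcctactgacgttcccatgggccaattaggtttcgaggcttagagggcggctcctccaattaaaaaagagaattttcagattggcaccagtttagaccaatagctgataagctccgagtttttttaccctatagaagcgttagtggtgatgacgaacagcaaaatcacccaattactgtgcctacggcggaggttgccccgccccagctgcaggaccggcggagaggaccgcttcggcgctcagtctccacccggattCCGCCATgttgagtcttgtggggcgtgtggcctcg

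In the first round, the NRF1 palindrome was in the windows of 5 of the 66 genes (7.58%) against 1.07% of 27025 genes with a window, CCGGAAG in 22.7% against 9.93% and ATGGCGG in 15.2% against 4.69%. In the second, TGCGCA was in 24.2% against 8.79%, the GABPA core in 39.4% against 18.8% and AAGATGGC in 15.2% against 3.19%. The genes' windows also held more G and C, with a median of 57.3% against 52.7%. Among the 5 genes with a window that passed a test between fractions, the first round matched 1, Atp5b with the YY1 form, and the second matched 3, Cox5a, Cox5b and Ndufb8. Cox7b had no match in either round. A match is a description of letters, and binding was not measured.

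The mean level of these genes, relative to the library total, was higher in HA-positive than in HA-negative libraries of the same animals. With the empty vector the summed level was 4819 ± 859 CPM (SD, n = 7) in HA-positive libraries (lowest 3692, median 4551, highest 5726) and 3546 ± 384 in HA-negative ones (2994, 3460 and 4014), a ratio of means of 1.36. The ranges overlapped, but the HA-positive library was the higher one in 7 of 7 animals. With g4 the sums were 4307 ± 577 CPM (3237, 4481 and 4994) and 3379 ± 210 (3163, 3402 and 3652), a ratio of 1.27, higher in 6 of 7 animals. The exception was animal 19, whose g4 HA-positive library had the lowest sum of its group, and without that library the ratio was 1.33 and the ranges no longer overlapped. Without the 4 libraries of few detected genes the ratios were 1.39 and 1.24. These are bulk samples, CPM are relative values, and the amount of RNA per nucleus was not measured. More cells of a type rich in this RNA, more of it per nucleus and less of other RNA cannot be told apart.

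**Figure D1:**
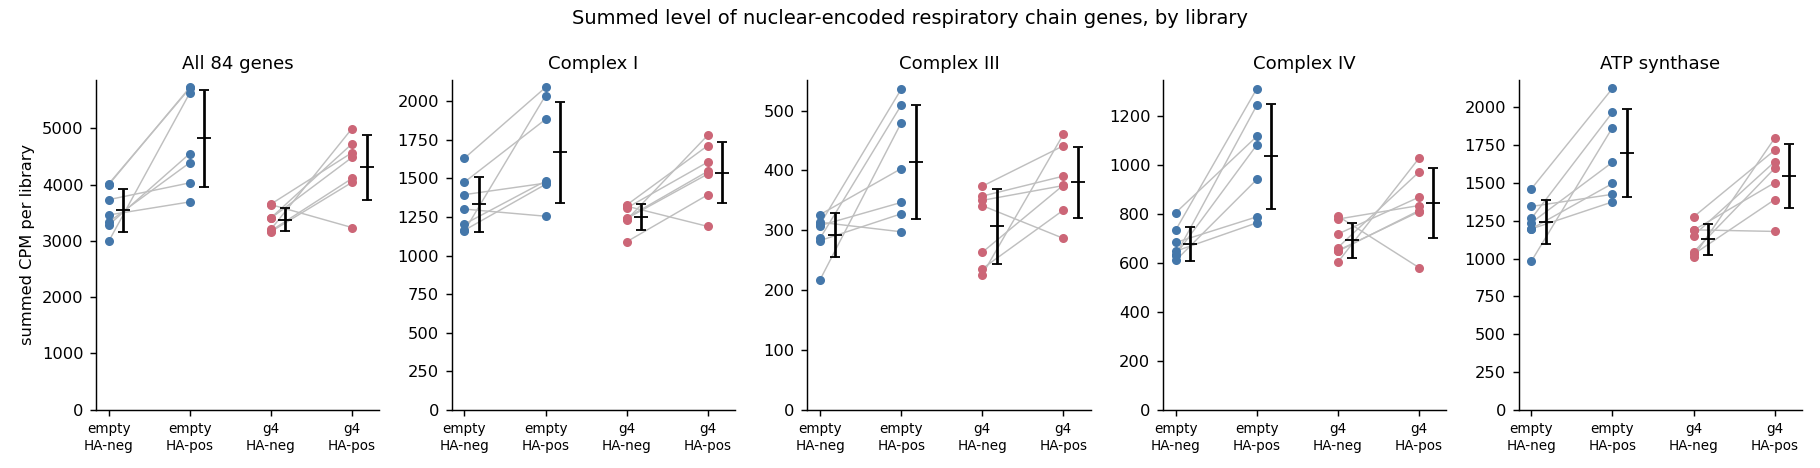
Summed CPM per library (y axis) of all 84 genes and of each complex, in the 4 groups (x axis; empty in blue, g4 in red). Points are libraries, grey lines join the fractions of an animal, and black bars are mean ± SD of 7 libraries; the sum over all genes was higher in the HA-positive library in 7 of 7 animals with the empty vector and in 6 of 7 with g4.

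Each complex shared the direction. With the empty vector the ratio of HA-positive to HA-negative means was 1.25 for complex I, 1.42 for complex III, 1.53 for complex IV and 1.37 for ATP synthase. With g4 it was 1.23, 1.24, 1.22 and 1.37 in the same order. Some counted reads may belong to overlapping genes, since the strand setting is not given in the sources used here and 33 of the 84 genes share exon positions with another annotated gene. The 51 genes without such overlap had ratios of 1.35 and 1.26.

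The 13 protein genes of the mitochondrial genome, which encode partner subunits of the same complexes, had ratios of 1.09 and 1.18. Their RNA is not made in the nucleus, so these ratios do not describe nuclear transcription. Of these 13, edgeR and DESeq2 called 0 in either comparison (unadjusted edgeR p under 0.05 for 1 with the empty vector and 4 with g4). The 85 cytosolic ribosomal protein genes had ratios of 1.01 and 0.987. Complex II and cytochrome c genes had 1.43 and 1.43, the citric acid cycle list 1.35 and 1.21, and regulators of mitochondrial biogenesis 1.57 and 1.38. Glycolysis genes had 1.16 and 1.13, and assembly factors 1.16 and 1.15. A higher summed level in HA-positive libraries was thus not particular to the genes described here. Whether they differed from any of these lists was not tested.

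Tested gene by gene with edgeR, 5 of 61 tested genes rose in HA-positive nuclei with the empty vector and 0 fell, where 3.5% of all 5538 genes tested rose, 3.5% fell and 7.01% were called in either direction. The 5 were Cox5a, Cox5b, Cox7b, Ndufb8 and Atp5a1. The direction was shared more widely than the calls: 52 of 61 had a positive log2 fold change, against 50.9% of all genes, and the median was 0.44 against 0.01. An unadjusted p under 0.05 was found for 21 of the 61 and for 19.2% of all genes. With the animal as a block in the model, 2 remained called, Cox5a and Cox5b, and the median stayed at 0.44.

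With g4, 3 of 67 tested genes rose and 0 fell, where 3.32% of all 6264 genes tested rose, 3.08% fell and 6.4% were called in either direction, so the share of calls was near that of all genes. They were Atp5a1, Atp5b and an entry named Atp5o, all of ATP synthase. Of the 67, 55 had a positive log2 fold change, against 50.6% of all genes, with a median of 0.31 against 0.01. An unadjusted p under 0.05 was found for 9 of the 67 and for 17.4% of all genes. Atp5a1 was called with both vectors, and 7 genes were called with at least 1. The filter on low counts left 23 of the 84 genes untested with the empty vector and 17 with g4, and a gene abundant in only 1 fraction passes it more easily than a gene low in both.

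**Figure D2:**
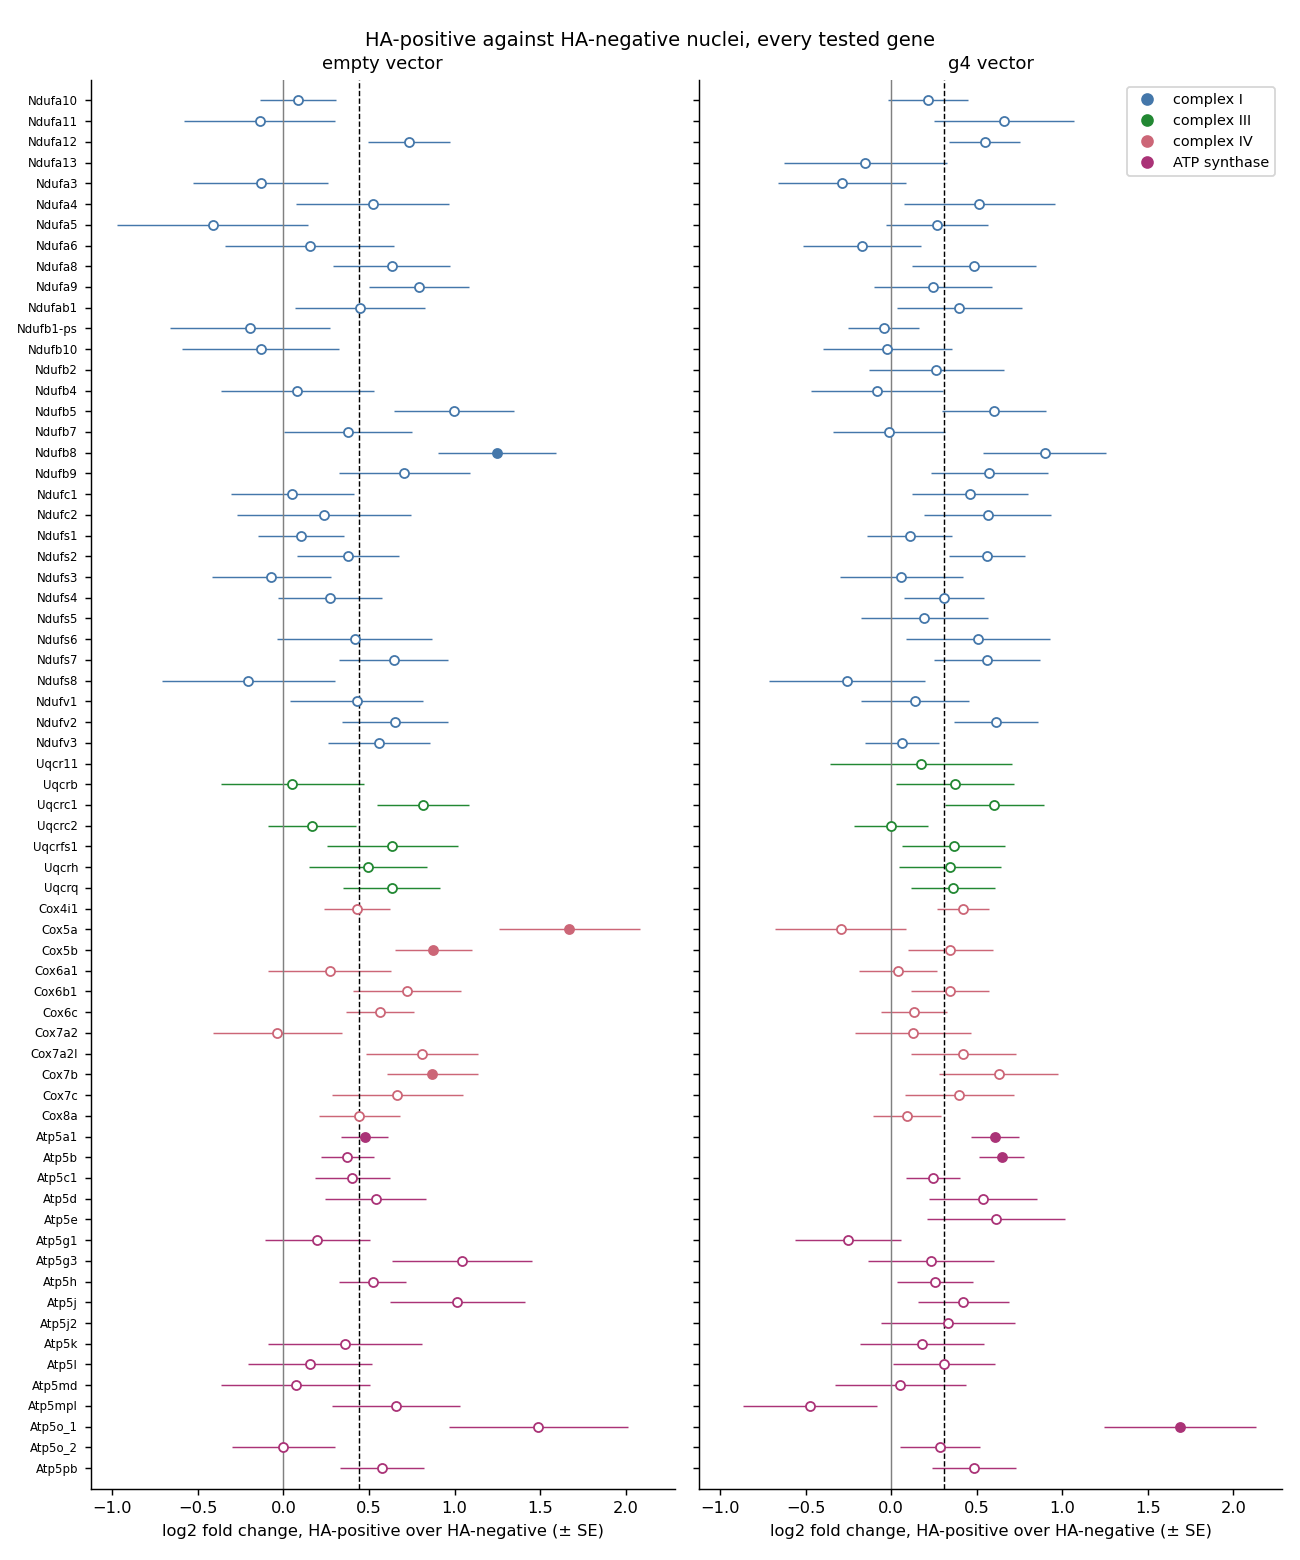
Log2 fold change of HA-positive over HA-negative nuclei (x axis, ± SE) for each tested gene (y axis, coloured by complex), with the empty vector at left and g4 at right. Filled points have an edgeR adjusted p under 0.05 and the dashed line is the median of the tested genes, 0.44 with the empty vector and 0.31 with g4.

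In complex IV, which reduces oxygen to water, 3 of 11 tested genes rose with the empty vector. Cox5a encodes a nuclear subunit that binds the thyroid hormone T2 (chromosome 9, 57521274 to 57532426, plus strand, GRCm38). Its level was 60.3 ± 39.6 CPM (SD, n = 7; lowest 28.5, median 39.4, highest 119) in empty HA-positive and 18.4 ± 8.12 (5.68, 18.4 and 29.3) in empty HA-negative libraries. In the first group 6 of 7 libraries lay above every library of the second, and 2 of them lay far above the rest. This was a log2 fold change of 1.67 ± 0.41 (SE, adjusted p 0.00925 by edgeR), higher in 7 of 7 animals. Without animal 17 or animal 19 the edgeR adjusted p was 0.0585 and 0.0882. Exons of Cox5a overlap those of Gm26631 on the other strand.

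With g4 the same gene showed no such excess. Its level was 29.9 ± 19.6 CPM (9.88, 27.5 and 57.7) in HA-positive and 35.9 ± 14.7 (16.7, 39 and 60) in HA-negative libraries. The log2 fold change was -0.30 ± 0.38 (edgeR adjusted p 0.776), and the ranges overlapped almost wholly. The change in fraction effect between vectors was -1.95 ± 0.57 on the log2 scale, negative in 7 of 7 animals, and did not pass the edgeR test over 7197 genes (adjusted p 0.797).

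Cox5b, a zinc-binding subunit on the matrix side of complex IV (chromosome 1, 36691449 to 36693681, plus strand), had 108 ± 27.6 CPM (80.3, 97.3 and 147) in empty HA-positive and 59.3 ± 9.02 (45.1, 64.3 and 68.4) in empty HA-negative libraries. The groups did not overlap, which held for 3.14% of all genes tested. Its log2 fold change was 0.88 ± 0.23 (edgeR adjusted p 0.0126). Without animal 21 or 22 the adjusted p was 0.0698 and 0.0534, without the libraries of few detected genes it was 0.129, and without the filter on low counts it was 0.0547. With g4 the levels were 85.7 ± 40.1 and 66.4 ± 18.3 CPM, a log2 fold change of 0.35 ± 0.25 (edgeR adjusted p 0.522).

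Cox7b, a small subunit with a single membrane helix (chromosome X, 106015700 to 106022450, plus strand), had 73.4 ± 18.2 CPM (51.5, 69.3 and 101) in empty HA-positive and 40.1 ± 8.06 (29, 41.4 and 51.3) in empty HA-negative libraries, again without overlap. On the log2 scale the change was 0.87 ± 0.27 (edgeR adjusted p 0.0413). This call was the least stable of the 5: the adjusted p was 0.0901 with the animal as a block, and leaving out any single animal other than 22 ended it, with values from 0.0696 to 0.141. It was also lost with library totals (0.0815), without the filter (0.132) and without the libraries of few detected genes (0.103). With g4 the log2 fold change was 0.63 ± 0.35 (edgeR adjusted p 0.364).

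Cox6a2, the heart and muscle partner of Cox6a1, is known in brain from parvalbumin interneurons. It was too low for the filter (chromosome 7, 128205435 to 128206387, minus strand). With the empty vector it had 52 counts in HA-positive libraries (0, 14.7 and 59.1 CPM as lowest, median and highest) and 15 in HA-negative ones (0, 0 and 13.2), higher in 6 of 7 animals. Fitted without the filter, the log2 fold change was 2.33 ± 0.77 and did not pass the edgeR test (adjusted p 0.0617). With g4 it had 28 and 9 counts, higher in 4 of 7 animals, and 1.77 ± 0.90 (unadjusted edgeR p 0.0487, not passing after adjustment). Cox6a2 made up 19.6% of the pooled counts of Cox6a1 and Cox6a2 in empty HA-positive libraries and 10.4% in g4 HA-positive ones. The pooled share was 5.98% in empty HA-negative and 3.72% in g4 HA-negative libraries. Single libraries varied widely, with a median of 17.6% (0 to 56.25%) in empty HA-positive and 4.55% (0 to 20.8%) in g4 HA-positive nuclei. The medians were 0% (0 to 14%) in empty HA-negative and 2.94% (0 to 7.89%) in g4 HA-negative nuclei. Cox6a1 itself had log2 fold changes of 0.27 ± 0.36 and 0.04 ± 0.23. Exons of Cox6a2 overlap those of Itgad on the other strand.

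In complex I, which oxidises NADH, 1 of 29 tested genes rose with the empty vector and 0 of 32 with g4. That gene was Ndufb8, an accessory subunit of the membrane arm (chromosome 19, 44548572 to 44555440, minus strand). It had 60 ± 20.6 CPM (36.7, 56.7 and 92.6) in empty HA-positive and 25.7 ± 10.4 (9.8, 23 and 36.9) in empty HA-negative libraries, and 6 of 7 libraries of the first group lay above all of the second. This gave a log2 fold change of 1.25 ± 0.34 (edgeR adjusted p 0.0206, higher in 7 of 7 animals). The adjusted p was 0.0545 with the animal as a block, 0.0595 to 0.0855 without animal 19, 21, 22 or 23, and 0.212 without the libraries of few detected genes. With g4 it was 0.90 ± 0.36 (edgeR adjusted p 0.159). Its exons overlap the same-strand entry Gm20538.

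Ndufa12, an accessory subunit of the matrix arm, had nearly as steady a difference without passing the test. Its log2 fold change was 0.73 ± 0.24 (edgeR adjusted p 0.0605) with the empty vector and 0.55 ± 0.21 (adjusted p 0.130) with g4, higher in 6 and 7 of 7 animals. DESeq2 called Ndufa12, Uqcrc1 and Ndufb5 in addition to the 5 genes with the empty vector. By contrast Ndufs1, which carries iron-sulphur clusters of the electron path, had 0.10 ± 0.25 and 0.11 ± 0.25. Ndufa10 had 0.08 ± 0.22 and 0.21 ± 0.23.

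In complex III, which passes electrons from ubiquinol to cytochrome c, 0 of 6 tested genes were called with the empty vector and 0 of 7 with g4 by edgeR (unadjusted p under 0.05 for 2 and 1, and DESeq2 called Uqcrc1 with the empty vector). Uqcrc1, a core protein, had 97.3 ± 31.2 against 55.6 ± 20.1 CPM with the empty vector, a log2 fold change of 0.82 ± 0.27 (edgeR adjusted p 0.0654, higher in 7 of 7 animals). Its partner core protein Uqcrc2 had 0.17 ± 0.26 with the empty vector and -0.00 ± 0.21 with g4. Uqcrfs1, the Rieske iron-sulphur subunit, had 0.64 ± 0.38 and 0.36 ± 0.30.

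ATP synthase held the called genes with g4. Atp5b, the beta subunit that carries the catalytic sites (chromosome 10, 128083273 to 128090391, plus strand), had 351 ± 54 CPM (244, 369 and 399) in g4 HA-positive and 223 ± 37.1 (156, 228 and 259) in g4 HA-negative libraries. Only the library of animal 23, at 244 CPM, fell within the range of the other group. The log2 fold change was 0.64 ± 0.13 (edgeR adjusted p 0.00187), higher in 7 of 7 animals; groups without any overlap made up 1.8% of all genes tested. With the empty vector the levels were 345 ± 88.3 and 267 ± 47.8 CPM and the log2 fold change 0.37 ± 0.16 (edgeR adjusted p 0.171).

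Atp5a1, the alpha subunit (chromosome 18, 77773729 to 77782869, plus strand), had 330 ± 64.2 CPM (206, 366 and 381) in g4 HA-positive and 216 ± 31.2 (182, 209 and 280) in g4 HA-negative libraries. The log2 fold change was 0.61 ± 0.14 (edgeR adjusted p 0.00501), higher in all animals but 19, whose library of 206 CPM was the lowest of its group. With the empty vector it had 348 ± 48.3 (261, 348 and 417) and 252 ± 36.3 CPM (190, 260 and 292), 0.48 ± 0.14 (edgeR adjusted p 0.0309, higher in 6 of 7 animals). This second call was lost with the animal as a block (adjusted p 0.0546), and without animal 17, 18, 19, 21 or 23 (0.0574 to 0.129). It was also lost with library totals in place of TMM factors (0.101), without the filter on low counts (0.137) and without the libraries of few detected genes (0.0983). Its exons overlap those of Haus1 on the other strand.

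The table lists Atp5o, a subunit of the stalk that joins the parts of ATP synthase, under a pair of Ensembl entries that behaved differently. The longer entry (ENSMUSG00000116933, chromosome 16, 91684398 to 91926982, minus strand) joins exons over a span that contains Cryzl1 and Itsn1 and shares exon positions with Donson. It had 56.6 ± 25.4 CPM (21.5, 66.9 and 87.5) in g4 HA-positive and 17.3 ± 11.5 (0, 16.2 and 33.8) in g4 HA-negative libraries, and 1.69 ± 0.44 on the log2 scale (edgeR adjusted p 0.0195). Without animal 18, 19 or 20 the adjusted p was 0.0504 to 0.106, and without the libraries of few detected genes it was 0.0563. With the empty vector it had 86.7 ± 57.4 against 30.4 ± 11 CPM and 1.49 ± 0.52 on the log2 scale (edgeR adjusted p 0.0985, higher in 6 of 7 animals), and was called there without the filter, without animal 22 and without the libraries of few detected genes. The shorter entry (ENSMUSG00000022956, 91925214 to 91931687), which is the gene proper, had 0.28 ± 0.24 with g4 and -0.00 ± 0.30 with the empty vector. How the counts were divided between these entries is not given in the sources used here, so the call of the longer entry is uncertain as a measure of Atp5o.

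The c-ring subunit is made from Atp5g1, Atp5g2 and Atp5g3, which encode the same mature protein. Atp5g3 had a log2 fold change of 1.05 ± 0.41 with the empty vector (edgeR adjusted p 0.132) and 0.23 ± 0.37 with g4. Atp5g1 had 0.20 ± 0.31 and -0.25 ± 0.31. Atp5g2 had 103 counts in all libraries and was not tested between fractions.

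**Figure D3:**
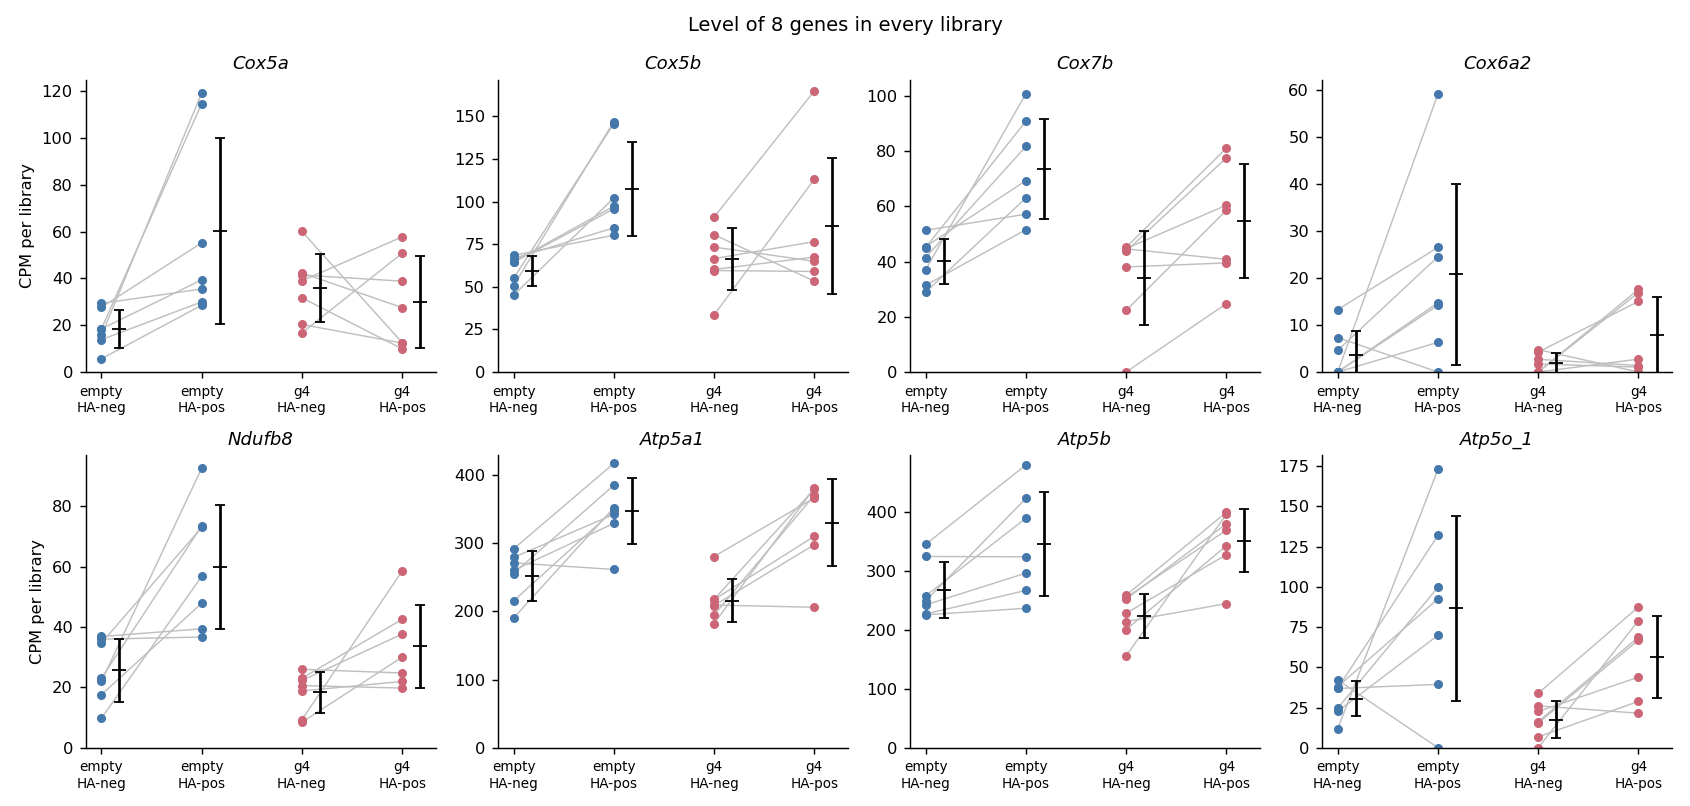
CPM per library (y axis) of the 7 genes called between fractions and of Cox6a2, in the 4 groups (x axis; empty in blue, g4 in red). Points are libraries, grey lines join the fractions of an animal and black bars are mean ± SD of 7 libraries, cut off at 0. For Cox5b and Cox7b the empty HA-positive libraries all lie above the empty HA-negative ones. With the empty vector 3.14% of all 5538 genes tested showed no overlap, in either direction.

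Related genes were read from lists of the same pathway. The low-count filter applied to them too, and a gene abundant in only 1 fraction passes it more easily. Over all genes tested 3.5% rose with the empty vector and 3.32% with g4. Of 19 regulators of mitochondrial biogenesis, 2 of 4 tested rose with the empty vector and 2 of 6 with g4, and they were the same 2. Ppargc1a, the coactivator PGC-1alpha, had log2 fold changes of 1.44 ± 0.27 (edgeR adjusted p 0.000589) and 1.23 ± 0.33 (0.0275). Esrrg, a nuclear receptor that partners it, had 1.70 ± 0.34 (edgeR adjusted p 0.000983) and 1.35 ± 0.36 (0.0163). Of the citric acid cycle list, 3 of 17 tested genes rose with the empty vector (Idh3a 0.74, Idh3b 0.89 and Pdha1 0.65 on the log2 scale) and 0 of 17 with g4 by edgeR. Of 15 glycolysis genes, Pgam1 and Pkm rose with the empty vector and Ldhb with g4. Of complex II and cytochrome c genes edgeR called 0 of 4 with either vector (unadjusted p under 0.05 for 1 and 2), and of assembly factors 0 of 6 and 0 of 10 (unadjusted 0 and 0).

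The fractions also differed in cell type markers. Of the inhibitory neuron list, 9 of 12 tested markers rose in HA-positive nuclei with the empty vector and 9 of 13 with g4, Pvalb by 2.82 and 2.30 and Sst by 2.22 and 2.10 on the log2 scale. The summed level of this list was 3393 to 4718 CPM in empty HA-positive against 1127 to 1482 in empty HA-negative libraries, and 1988 to 3978 against 1077 to 1505 with g4. Of the excitatory neuron list 4 of 13 and 4 of 14 fell, with sums of 994 to 1994 against 2098 to 2704 CPM and 1600 to 2153 against 1968 to 2633. Oligodendrocyte markers fell in 8 of 8 and 7 of 9 tested genes (sums of 52.0 to 125 against 1255 to 2188 CPM, and 105 to 1542 against 1552 to 2776). Microglia markers fell in 5 of 5 and 4 of 6, and Cx3cr1, P2ry12, C1qa, C1qc and Gpr34 were at 0 in empty HA-positive libraries. Astrocyte markers fell in 1 of 5 tested genes with the empty vector and 0 of 5 with g4. Over all genes tested 3.5% rose and 3.5% fell with the empty vector, and 3.32% and 3.08% with g4. A marker near 0 in 1 fraction passes the low-count filter only if it is abundant in the other. The counts of called markers were thus partly set by the filter. The part of these markers in the differences of the respiratory chain genes was not tested.

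Between the vectors, 0 of the genes passed the test. In HA-positive nuclei edgeR called 0 of 59 tested genes, where 0.0599% of all 5011 genes tested were called (0.02% higher and 0.0399% lower), DESeq2 called 0, and an unadjusted edgeR p under 0.05 was found for 3 against 6.69% of all genes. The log2 fold change of g4 over empty was positive for 13 and negative for 46 of 59, where 49.2% of all genes were positive, with a median of -0.17 against -0.01 for all genes. In complex IV it was negative for 11 of 11 (median -0.30), for 9 of 11 without the g4 library of animal 19 (median -0.20) and for 9 of 11 with library totals in place of TMM factors. The summed level was 0.894 of that with the empty vector and lower in 5 of 7 animals. Without animal 19 in both groups the median was -0.04, and without the g4 HA-positive library alone it was -0.14.

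The lowest p among these belonged to Ndufa9, an accessory subunit near the ubiquinone site, at 39.3 ± 17.4 CPM (11, 34.3 and 60) for g4 against 76.4 ± 25.2 (47.3, 75.4 and 108) for empty. The ranges overlapped, and the log2 fold change of -0.96 ± 0.33 had an edgeR adjusted p of 0.619. Cox5a had -1.02 ± 0.44 (edgeR adjusted p 0.730) and Ndufb8 -0.83 ± 0.34 (0.729), and these rest on the same empty HA-positive libraries as the difference between fractions above. The ATP synthase gene Atp5mpl had -0.94 ± 0.46 (edgeR adjusted p 0.736). Atp5a1 and Atp5b had -0.09 ± 0.15 and 0.02 ± 0.16. In the same libraries the summed inhibitory neuron markers were 0.827 and the astrocyte markers 1.57 of the level with the empty vector. The oligodendrocyte marker sum was 358 against 97.6 CPM, and 161 without the library of animal 19. The part of these markers in the values was not tested.

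In HA-negative nuclei edgeR called 0 of 64 tested genes, as DESeq2 did, where 0% of all 6262 genes tested were called. An unadjusted edgeR p under 0.05 was found for 1 of the 64 against 3.77% of all genes. The log2 fold change was positive for 25 of 64, where 49.2% of all genes were positive, with a median of -0.10 against -0.00 for all genes. The gene with the lowest p was Cox5a, at 35.9 ± 14.7 CPM for g4 against 18.4 ± 8.12 for empty, and 5 of 7 g4 libraries above every empty one. Its log2 fold change was 0.93 ± 0.35 (edgeR adjusted p 0.999).

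The g4 effect was then compared between the fractions in 1 model of all 28 libraries. Of 71 tested genes 0 were called by edgeR and 0 by DESeq2, where 0% of all 7197 genes were called, and an unadjusted edgeR p under 0.05 was found for 3 against 4.99% of all genes. The 3 were Cox5a, given above, Ndufb11 (-1.80 ± 0.85, edgeR adjusted p 0.979) and Atp5mpl (-1.12 ± 0.55, adjusted p 0.979). The value was positive for 27 of 71, where 53.2% of all genes were positive, and the median was -0.14 against 0.03 for all genes. Taken animal by animal, the median was above 0 in 5 of 7 animals, at -0.12 in animal 23 and at -1.12 in animal 19. The fitted median was -0.11 once that animal's g4 HA-positive library was dropped, and -0.01 without animal 19 in all groups.

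**Figure D4:**
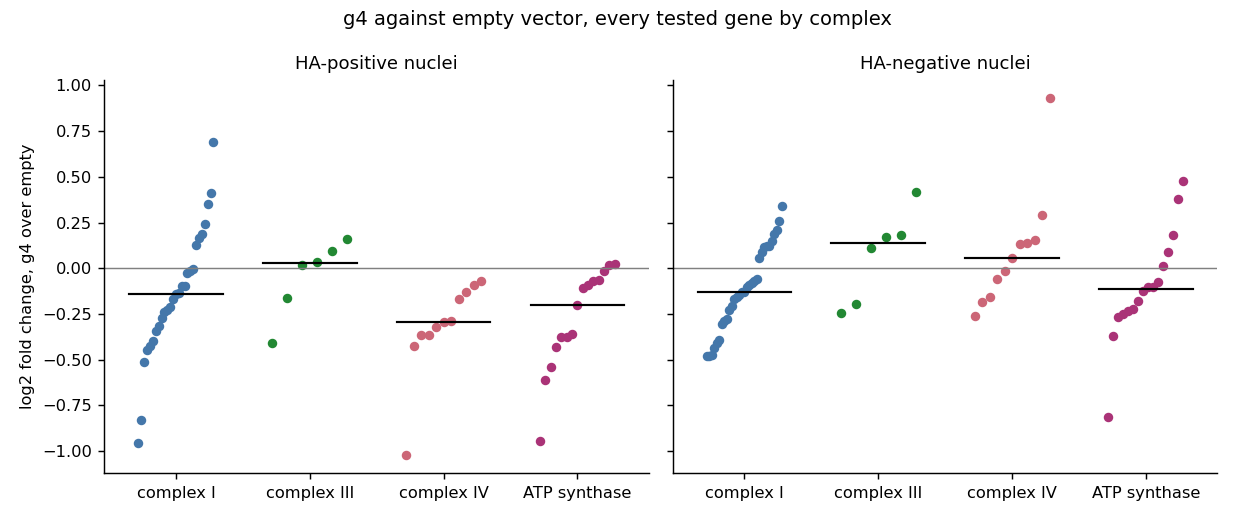
Log2 fold change of g4 over empty (y axis) for each tested gene, by complex (x axis), in HA-positive nuclei at left and HA-negative nuclei at right. Points are genes in order of value and black lines are medians; in HA-positive nuclei the 11 complex IV genes all lie below 0, with a median of -0.30, and 0 genes passed the test in either fraction.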

How the data were processed

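The values are raw counts per gene, 1 column per library, as the authors deposited them, per the labels in 1 table for each sorted fraction. Reads came from nuclear RNA of picogram amounts, and the genome build was GRCm38, per the submitters' processing notes. No label or header names the aligner, the counter, the strand setting or molecular identifiers. Empty cells were read as 0, and 1 entry without a gene name was left out. For 3 animals the title number is 1 below that of the column, and the sample descriptions tied them.

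Each comparison was fitted on its whole table in R 4.3.3 with edgeR 4.0.16, after filterByExpr on groups and TMM scaling, using robust quasi-likelihood F tests. A call means an adjusted p (Benjamini-Hochberg, over every gene tested) below 0.05. SE is the absolute log2 fold change over the square root of F. DESeq2 1.42.0, library totals, no filter, the animal as a block, each animal left out and doubted libraries left out were alternatives. The fit was checked on simulated counts in which every gene had the same dispersion and libraries were not paired by animal. Such counts are simpler than these data, so the check does not measure how reliable the calls are. Same-numbered samples are given as the same animal, per the titles, so the numbers were taken to pair them; for the g4 HA-positive library of animal 19 this is in doubt, since it held Xist and the other libraries of that number did not. Exon lengths and overlaps come from GENCODE.

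Named genes were those called in any comparison, the 5 with the lowest p in each, the 4 with the highest CPM per complex, paralogs and genes at 0. Genes of related lists were named if called, at most 3 per list. The genes, lists and rules were chosen with earlier results of these data known. The second round of promoter motifs was chosen after the first.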

Additional observations from a re-analysis of the deposited data

Results flagged for a closer look

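For the summed levels and the called genes, the highest or lowest library of each group was compared with its neighbours by Dixon's test. It picked out 3 of 52 values, and chance alone picks out about 1 in 20. The complex I sum of animal 21 in g4 HA-negative nuclei was 1089 CPM, below the 1230 to 1327 of the other 6 animals. The complex III sum of animal 19 in empty HA-negative nuclei was 218 CPM, below the 283 to 326 of the others. Atp5a1 in g4 HA-negative nuclei of animal 20 was 280 CPM, above the 182 to 217 of the others.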

How the results depend on the processing

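The number of genes that rose in HA-positive nuclei with the empty vector was 5 as reported, 8 with DESeq2, 3 with library totals in place of TMM factors, 3 without the filter on low counts, and 2 with the animal as a replicate block. It ranged from 1 to 6 when each animal was left out, was 1 without animal 19, and was 4 without the HA-positive libraries of few detected genes. Only Cox5a of the 5 was among those 4. With g4 it was 3 with the block and 2 to 4 with an animal left out, and Atp5a1 and Atp5b were called in every setting run. The block changed no call in the other comparisons. The medians kept their sign in every setting run, and 0 results reversed. The size of the summed levels depends on the denominator. Without ribosomal RNA and mitochondrially encoded genes in the totals they were 6934 CPM in empty HA-positive and 6089 in g4 HA-positive libraries. They were then 5046 CPM in empty HA-negative and 4816 in g4 HA-negative libraries, so the groups kept their order. The cause of the shifts in the number of called genes was not tested. Counts of a few per library limit what can be seen of most single genes, and a gene that missed the threshold is not shown to be equal between groups.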
